A study of Homo sapiens with 3 samples.

Results

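The genes of the endoplasmic reticulum (ER) unfolded protein response were followed in A375, an established human melanoma cell line, after exposure to the secretome of young or old adipocytes. The 10 genes were found by symbol, and all were present among the 58037 genes of the count table. They were the sensors ERN1, ATF6 and EIF2AK3, the transcription factor XBP1, the degradation factor HERPUD1, the folding factors SDF2L1, PDIA4 and HYOU1, and the ER-resident and secreted proteins CRELD2 and MANF. Each had a mean normalised count of at least 20 over the libraries and passed the expression filter, which 14413 genes passed in all.

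A375 cells were incubated for 24 h in serum-free DMEM (control, A375), in young adipocyte secretome (YA-A375) or in old adipocyte secretome (OA-A375). The treatment protocol shared by the samples gives a range that reaches 48 h. The secretomes were serum-free DMEM conditioned by adipocytes that had been differentiated in culture from the subcutaneous preadipocytes of donors, and the labels do not say how many donors stood behind each. Each group had 1 poly(A) RNA library, so a difference between libraries has no replicate check and none was tested as a difference between conditions.

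Secretory and membrane proteins fold in the ER, where chaperones, disulfide isomerases and a quality control that sends failed proteins to the proteasome handle them. When unfolded proteins build up, IRE1 (encoded by ERN1) splices XBP1 mRNA, ATF6 is cut in the Golgi to release a transcription factor, and PERK (encoded by EIF2AK3) phosphorylates eIF2alpha, which slows translation and favors that of ATF4. ATF6 and spliced XBP1 are known to raise chaperone and degradation genes, while ATF4 raises genes of amino acid supply and of the stress response and can also be reached through other eIF2alpha kinases.

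Total counts were 21448195 (control), 21306558 (YA) and 18089008 (OA), and size factors were 1.06, 1.06 and 0.891. Of the melanoma cell markers, MITF (1221, 764 and 881 counts in control, YA and OA) and S100B (843, 591 and 550) were counted, whereas SOX10, a defining gene of the melanocyte lineage, was listed at 0 in all 3 libraries and PMEL, MLANA, TYR and DCT had at most 22 counts, and the 8 markers summed to normalised counts of 1989, 1336 and 1655. Exons of another gene covered 2.4% of the exon bases of SOX10, and whether its 0 came from the counting was not tested. Of 8 adipocyte markers the defining ADIPOQ and LEP had at most 1 count in any library, and PLIN1 had at most 5. The 5 that passed the filter were PLIN4, LPL, CFD, CIDEC and PPARG. All were at least 1.2-fold higher in YA, from 1.23-fold for PPARG to 4.55-fold for CIDEC. CIDEC had 6, 31 and 36 counts in control, YA and OA, and the interval of CFD in YA (0.741 to 2.14) held 1. In OA PLIN4, CFD and CIDEC were also past 1.2-fold, at 1.345-fold, 1.68-fold and 6.22-fold. PPARG was at 1.13-fold in OA, and LPL went from 353 to 30 counts. The summed normalised count of the list was 2150 (control), 3022 (YA) and 2199 (OA), of which PPARG alone gave 1515, 1856 and 1717. The sum of 8 fibroblast markers was 224, 359 and 255. Both sums were highest in YA, the library in which ERN1, HERPUD1 and XBP1 were also highest, and 3 of the 4 fibroblast markers that passed the filter were higher there too. DCN had 13, 138 and 24 counts, COL1A1 75, 117 and 84 and LUM 66, 101 and 58, whereas PDGFRA had 76, 20 and 51 and COL1A2, COL3A1, THY1 and FAP had at most 5. Whether RNA of adipocytes or fibroblasts was present, and what part it had in the values of the 10 genes, was not tested.

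In YA-A375 the 10 genes separated into a few that were higher than in control and a larger number that were not. ERN1, HERPUD1 and XBP1 were 1.78-fold, 1.48-fold and 1.4-fold of control. MANF was lower, at 0.780-fold, and the chaperone-type genes PDIA4 and HYOU1 stayed within a few percent of control. In OA-A375 no gene was at least 1.2-fold higher, while CRELD2 and MANF were lower at 0.733-fold and 0.832-fold. The plot of normalised counts shows each gene in each library.

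**Figure D1:**
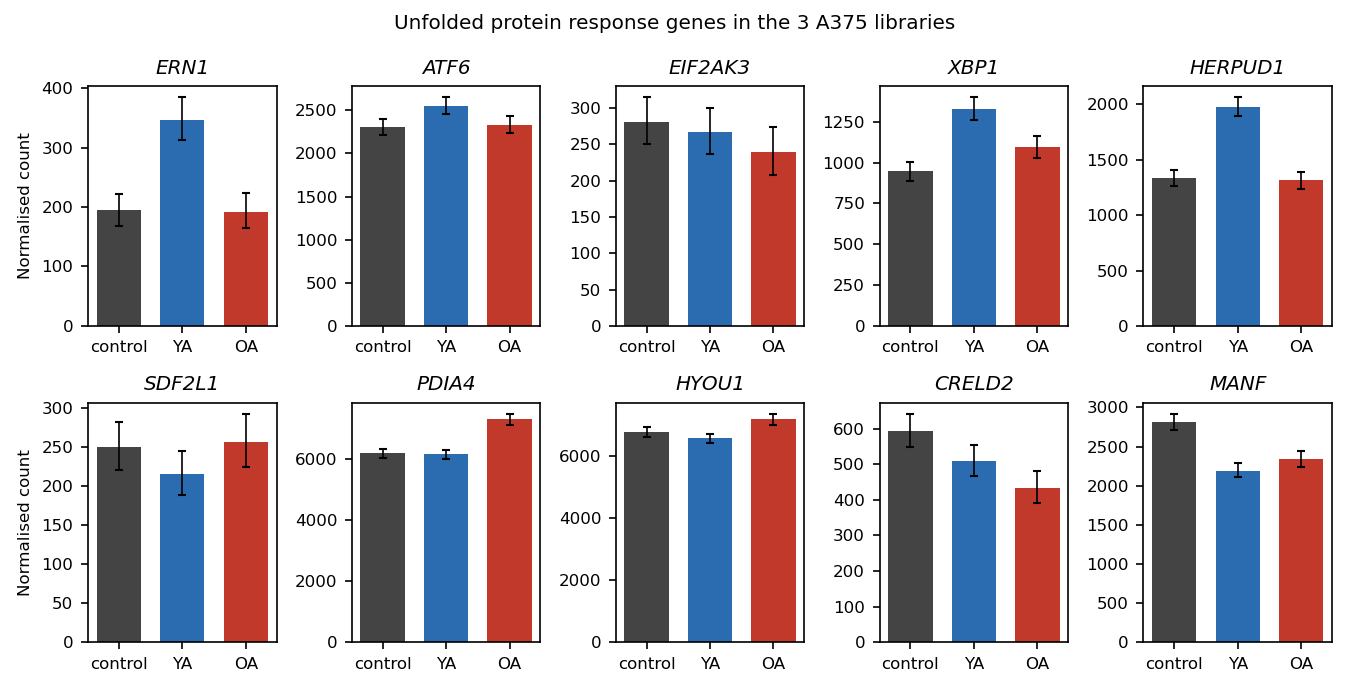
Normalised counts (counts divided by the library's size factor; y axis from 0, a separate scale for each gene) of the 10 unfolded protein response genes in control (grey), YA (blue) and OA (red). Each bar is 1 library and each error bar the exact 95% Poisson interval of its count, which covers counting error only. ERN1, XBP1 and HERPUD1 are highest in YA, and CRELD2 and MANF are highest in control.

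Among the sensors, only ERN1 passed 1.2-fold in any comparison. ERN1 (ENSG00000178607.15, minus strand of hg38 chromosome 17, 64039142 to 64130819) encodes IRE1, a kinase and RNase of the ER membrane. It had 206 (control), 367 (YA) and 171 (OA) counts, which are normalised counts of 194, 347 and 192. The YA library stood alone above the others, with a 95% Clopper-Pearson counting interval of its fold change from 1.5 to 2.13. OA was at 0.989-fold of control (interval 0.803 to 1.22), and YA was 1.80-fold of OA (1.5 to 2.18).

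ATF6 (ENSG00000118217.5, plus strand of chromosome 1, 161766294 to 161964070) encodes the sensor whose cytosolic part becomes a transcription factor. Its counts of 2450, 2699 and 2080 in control, YA and OA gave 2309, 2551 and 2335 after normalisation. It was 1.11-fold of control in YA (interval 1.05 to 1.17) and 1.01-fold in OA (0.954 to 1.07), both short of 1.2-fold. EIF2AK3 (ENSG00000172071.11, minus strand of chromosome 2, 88556741 to 88627576), the gene of PERK, had 298, 283 and 213 counts and normalised counts of 281, 268 and 239. Its fold changes of 0.953 in YA (0.807 to 1.13) and 0.852 in OA (0.711 to 1.02) could not be told from 1 at this depth. Exons of other genes on the opposite strand covered 15.1% of the exon bases of EIF2AK3, and the use of strand in counting is not given in the sources used here.

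XBP1 (ENSG00000100219.16, minus strand of chromosome 22, 28794555 to 28800597) encodes the transcription factor made from the mRNA that IRE1 splices. Counts of 1004 (control), 1405 (YA) and 974 (OA) gave 946, 1328 and 1093 after normalisation. YA was the highest library, OA lay between it and control, and the intervals of both fold changes excluded 1. It reached 1.4-fold of control in YA (interval 1.29 to 1.52), against 1.16-fold in OA (1.06 to 1.26), and YA was 1.21-fold of OA (1.12 to 1.32). A count per gene holds spliced and unspliced XBP1 mRNA together, so the splicing itself was not measured.

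HERPUD1 (ENSG00000051108.14, plus strand of chromosome 16, 56932048 to 56944863) encodes a membrane protein of ER-associated degradation. It had 1414 (control), 2090 (YA) and 1170 (OA) counts, or 1332, 1975 and 1313 after normalisation. YA stood above both other libraries, which differed from each other by less than their counting error. YA was 1.48-fold of control (interval 1.39 to 1.59) and 1.5-fold of OA (1.4 to 1.62), and OA was 0.986-fold of control (0.911 to 1.07).

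None of the folding genes was at least 1.2-fold higher or lower in any of the 3 comparisons. PDIA4 (ENSG00000155660.10, minus strand of chromosome 7, 149003062 to 149028641), a protein disulfide isomerase, had 6566 (control), 6506 (YA) and 6497 (OA) counts, which normalise to 6187, 6149 and 7293. OA was the highest library at 1.18-fold of control (1.14 to 1.22), whereas YA was at 0.994-fold (0.960 to 1.03). HYOU1 (ENSG00000149428.18, minus strand of chromosome 11, 119044189 to 119057202), a large chaperone and nucleotide exchange factor for the ER Hsp70, had 7199, 6951 and 6398 counts and normalised counts of 6784, 6569 and 7182.

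HYOU1 was at 0.968-fold of control in YA (interval 0.937 to 1.00) and 1.06-fold in OA (1.02 to 1.09), so its 3 libraries lay close together. For both genes the YA value was below that of OA, at 0.843-fold for PDIA4 (0.815 to 0.873) and 0.915-fold for HYOU1 (0.884 to 0.947). SDF2L1 (ENSG00000128228.4, plus strand of chromosome 22, 21642261 to 21644298), a partner of ER Hsp40 proteins, was counted 265, 228 and 229 times, or 250, 216 and 257 after normalisation. Its fold changes of 0.864 in YA (0.720 to 1.03) and 1.03 in OA (0.859 to 1.23) both had intervals that held 1.

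CRELD2 and MANF, whose products reside in the ER and are secreted from stressed cells, were lower with both secretomes. CRELD2 (ENSG00000184164.14, plus strand of chromosome 22, 49918167 to 49927540) had 629 (control), 537 (YA) and 387 (OA) counts, with normalised counts of 593, 508 and 434. Control was the highest library, with YA at 0.857-fold of it (interval 0.762 to 0.962) and OA at 0.733-fold (0.644 to 0.833). MANF (ENSG00000145050.15, plus strand of chromosome 3, 51385047 to 51389397) had 2986, 2321 and 2084 counts, or 2814, 2194 and 2339. It was 0.780-fold of control in YA (0.738 to 0.823) and 0.832-fold in OA (0.786 to 0.879), so in OA it lay just past 1.2-fold and its interval crossed that line. YA and OA shared the control library, and between themselves they differed by 1.17-fold for CRELD2 (1.02 to 1.34) and 0.938-fold for MANF (0.884 to 0.995).

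**Figure D2:**
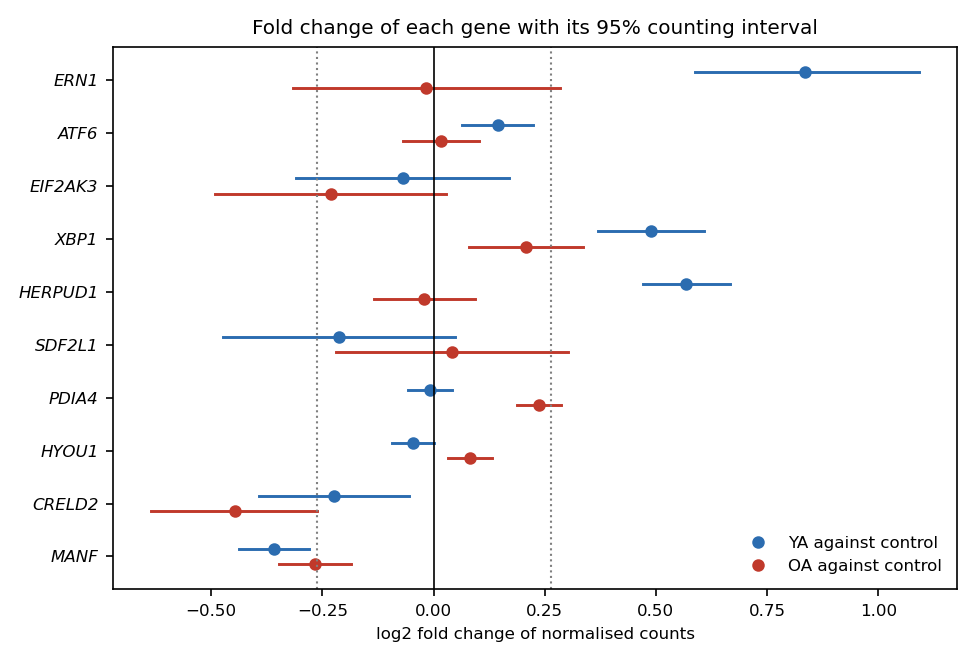
Log2 fold change of normalised counts (x axis) of each of the 10 genes in YA (blue) and OA (red) against the shared control library. Points are the fold changes, lines their 95% Clopper-Pearson counting intervals, and dotted lines 1.2-fold in each direction. ERN1, XBP1 and HERPUD1 lie wholly to the right of the dotted line in YA, and MANF in YA and CRELD2 in OA lie to the left.

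Counted at 1.2-fold, 3 of the 10 genes were higher in YA against control, where 17.4% of all tested genes were, and 1 was lower, where 16.4% were. In OA against control 0 were higher and 2 lower, beside 21.1% and 21.5% of tested genes. Between YA and OA the same 3 genes, ERN1, HERPUD1 and XBP1, were higher in YA and 0 were lower, beside 23% and 21.5%. At this threshold a difference of about 2 genes or fewer separated each count from the share of all genes, and nothing particular to the 10 genes is read from it.

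When the whole counting interval had to lie beyond 1.2-fold, ERN1, HERPUD1 and XBP1 remained higher in YA against control (6.03% of all tested genes) and MANF remained lower (4.44%). In OA against control 0 were higher (9.04%) and CRELD2 alone was lower (9.08%). ERN1 and HERPUD1 were higher in YA against OA (10%), and 0 were lower (9.03%). XBP1 left the last comparison because its lower bound was 1.12.

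The median log2 fold change of the 10 genes was -0.03 in YA against control, beside -0.02 over all tested genes, with a range from -0.36 to 0.83. In OA against control the median was 0.00 beside 0.01 and the range was narrower, from -0.45 to 0.24. The middle 50% of all tested genes ran from -0.18 to 0.17 in YA and from -0.21 to 0.21 in OA, and it held 4 and 6 of the 10 genes. Summed over the genes, 23017 (control), 23387 (YA) and 20203 (OA) counts were 0.107%, 0.110% and 0.112% of each library. PDIA4 and HYOU1 supplied 59.8%, 57.5% and 63.8% of these sums. The normalised sum was 21689 in control and 22103 in YA, where neither of these genes was higher. PDIA4 had 6187 in control and 6149 in YA, and HYOU1 6784 and 6569.

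Levels were compared between genes as counts per kilobase of annotated exon scaled to the library total (RPKM). In control PDIA4 was highest at 93.4, followed by MANF at 58.4 and HYOU1 at 43.6. XBP1, ATF6, HERPUD1 and SDF2L1 formed a middle group at 15.5, 14.5, 12.8 and 11.2, and CRELD2 was at 5.68. EIF2AK3 at 2.56 and ERN1 at 0.884 were lowest, so the sensors IRE1 and PERK were encoded by the scarcest mRNAs of the set. In YA HERPUD1 reached 19.0 and passed ATF6 at 16.1, while ERN1 at 1.59 stayed below EIF2AK3 at 2.44. In OA PDIA4 reached 110 and the order was that of control, with XBP1 at 17.8, ATF6 at 14.6 and HERPUD1 at 12.5. With 1 library per group, the order of close neighbours such as XBP1 and ATF6 has no replicate error to set it against. Exon length was taken over all annotated transcripts of a gene, which lowers the level of genes with long rare exons.

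The promoters are shown because the cis elements that ATF6 and XBP1 are known to use were present in genes that differed in YA and in genes that did not. The ER stress response element (ERSE) consists of CCAAT, 9 bases of any kind and CCACG, and ERSE-II of ATTGG, 1 base and CCACG, where NF-Y is known to bind the CCAAT box and ATF6 or XBP1 the other part. Exact matches were searched on both strands in RefSeq windows from 250 bases before to 50 after each start site (GRCh38.p14), which covered all 10 genes with 12 windows. ERSE was found in XBP1 and CRELD2 and ERSE-II in HERPUD1, SDF2L1 and HYOU1, 5 of the 10 genes. Either element was in 44 of all 27305 genes with a window (0.161%) and in 46 of 35116 windows (0.131%). These elements were first described in promoters of this kind, so the overlap is a description. The sequences are 5′ to 3′ in the direction of the gene, upstream of the start site and outside annotated exons, with the matched element in capitals. The labels higher and lower mark differences from control of at least 1.2-fold. Short of that, but with intervals off 1, XBP1 was also 1.16-fold of control in OA and CRELD2 0.857-fold in YA. Another start-site window of XBP1 held neither element.

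XBP1, chr22:28800598-28800671, minus strand, ERSE at -52 to -34 from the start site, higher in YA: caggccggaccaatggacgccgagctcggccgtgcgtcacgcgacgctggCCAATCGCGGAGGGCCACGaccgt
HERPUD1, chr16:56931975-56932047, plus strand, ERSE-II at -117 to -107, higher in YA: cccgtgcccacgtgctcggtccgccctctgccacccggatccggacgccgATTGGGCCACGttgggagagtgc
SDF2L1, chr22:21642064-21642174, plus strand, ERSE-II on the opposite strand at -188 to -178, within counting error of control: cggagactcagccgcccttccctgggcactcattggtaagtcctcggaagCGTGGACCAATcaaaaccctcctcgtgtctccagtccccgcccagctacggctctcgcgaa
HYOU1, chr11:119057224-119057440, minus strand, a pair of ERSE-II matches on the opposite strand at -185 to -175 and -79 to -69, short of 1.2-fold in both secretomes: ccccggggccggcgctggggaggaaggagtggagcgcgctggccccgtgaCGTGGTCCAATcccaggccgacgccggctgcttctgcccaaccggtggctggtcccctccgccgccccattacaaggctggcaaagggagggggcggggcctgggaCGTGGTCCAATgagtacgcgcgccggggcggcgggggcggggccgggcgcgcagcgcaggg
CRELD2, chr22:49918504-49918622, plus strand, ERSE on the opposite strand at -80 to -62, lower in OA: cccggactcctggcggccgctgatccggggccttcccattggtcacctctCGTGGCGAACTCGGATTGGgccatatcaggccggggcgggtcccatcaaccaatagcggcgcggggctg

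The XBP1 and HERPUD1 promoters, which hold an element each, belonged to genes higher in YA, and the HYOU1 promoter, which holds a pair, to a gene at 0.968-fold. The unfolded protein response element TGACGTGG was found only in HYOU1, where it overlaps the distal ERSE-II. Of all genes with a window 0.927% held it, and of all windows 0.729%. The core CCACG was in 8 of the 10 genes, beside 42.1% of all genes with a window and 38.1% of all windows. ERN1 and ATF6 held none of these letters in their windows, and MANF, PDIA4 and EIF2AK3 held only the core.

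**Figure D3:**
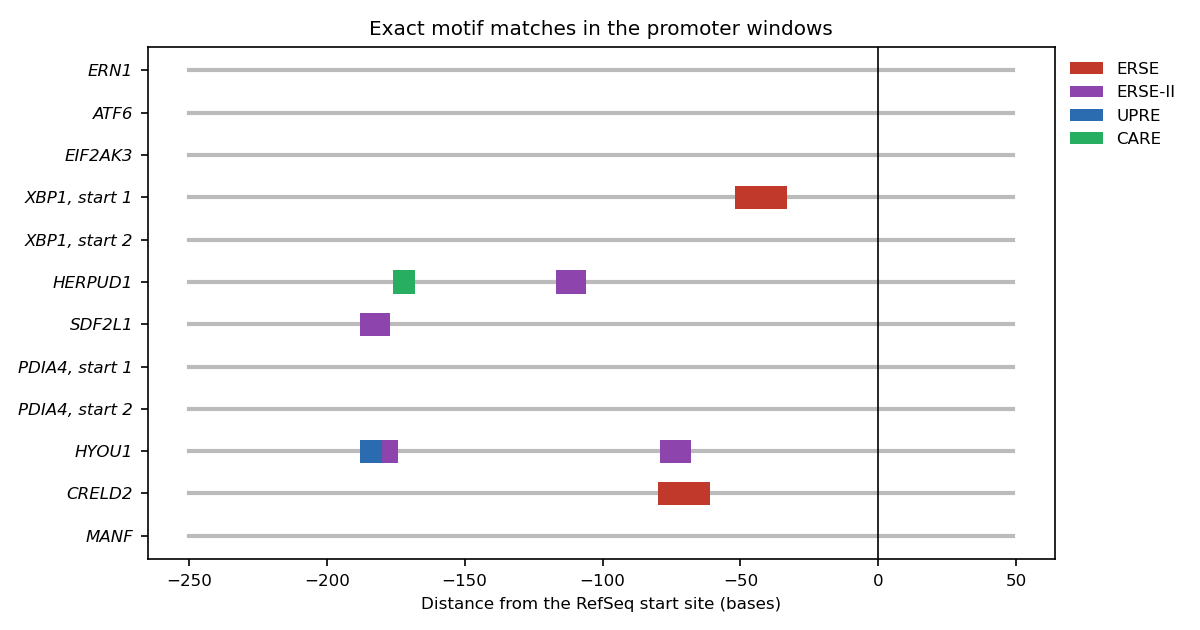
Exact matches to ERSE (red), ERSE-II (purple), UPRE (blue) and the ATF4 and C/EBP composite site CARE (green) in the RefSeq promoter windows, drawn as grey lines. The x axis is the distance from the start site in bases, and genes with a pair of start sites have a pair of lines. HYOU1 carries 2 ERSE-II matches, and HERPUD1 carries an ERSE-II and a CARE match.

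Over the pathway genes listed here, 11 had ERSE or ERSE-II in a promoter window, the others being HSPA5, HSP90B1, CALR, CANX, PDIA6 and ERO1B. Of these 11, XBP1 and HERPUD1 were at least 1.2-fold higher in YA against control and ERO1B was lower, and in OA 0 were higher and CRELD2 and ERO1B were lower. Their median log2 fold change was -0.05 in YA and 0.01 in OA. Among all 29 tested genes of the table with either element, 5 were higher and 5 lower in YA (17.2% each), beside 15.1% and 14.3% of the 10025 tested genes with a window. In OA 6 were higher and 7 lower (20.7% and 24.1%), beside 19.5% and 20.1%.

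HSPA5, which encodes BiP, the ER Hsp70 that holds the sensors inactive, had 18368 (control), 18774 (YA) and 17084 (OA) counts. It was 1.03-fold of control in YA (interval 1.00 to 1.05) and 1.11-fold in OA (1.09 to 1.13), close to control with a narrow counting interval. DNAJB9, an ER Hsp40 that XBP1 is known to induce, had 295, 295 and 235 counts and fold changes of 1.00 in YA (0.851 to 1.18) and 0.949 in OA (0.796 to 1.13). Of the 16 ER chaperones and cochaperones, all tested, 0 were at least 1.2-fold higher in either secretome and 1, DNAJC3, was lower in both. Of all tested genes 17.4% were higher and 16.4% lower in YA, and 21.1% and 21.5% in OA. The same shares stand beside the counts of the later lists. DNAJC3, a cochaperone that also restrains PERK, was at 0.814-fold in YA (0.768 to 0.863) and 0.714-fold in OA (0.670 to 0.760). ERP29, a folding factor of the lumen, had the highest lower bound of the list in YA, at 1.11-fold (1.05 to 1.16). The median of the list was 0.00 in YA and 0.01 in OA on the log2 scale.

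Genes of oxidative folding, which make and shuffle disulfide bonds, ranged more widely than the ER chaperones. Their log2 fold changes ran from -0.68 to 0.13 in YA and from -1.08 to 1.21 in OA. Of 13, 0 were higher and 2 lower in YA, and 3 were higher and 1 lower in OA, with medians of -0.16 and 0.11. Beside 17.4% and 16.4% of all tested genes in YA and 21.1% and 21.5% in OA, nothing particular is read from these counts. ERO1B, an oxidase that recharges the disulfide isomerases, had 1193 (control), 741 (YA) and 472 (OA) counts, or 0.623-fold (0.568 to 0.683) and 0.472-fold (0.423 to 0.525) of control. TXNDC5 had 20, 18 and 40 counts and was 2.31-fold of control in OA (1.36 to 4.30), though exons of an overlapping read-through gene covered 60.6% of its exon bases. P4HB was at 1.09-fold in YA (1.06 to 1.12).

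In ER-associated degradation 0 of 18 tested genes were at least 1.2-fold higher and 2 were lower in YA, so HERPUD1 was not joined there by its partners. In OA 2 were higher and 4 lower, and the medians were -0.05 and -0.06. UBE2J1, an ER ubiquitin-conjugating enzyme, was lowest by its upper bound in both, at 0.769-fold in YA (0.720 to 0.821) and 0.720-fold in OA (0.671 to 0.772). VCP, the ATPase that extracts substrates, was 1.26-fold of control in OA (1.23 to 1.30) and 1.04-fold in YA (1.01 to 1.07). DERL3 had at most 2 counts and was not tested.

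The translocon and signal peptidase genes, which bring proteins into the ER, had a median of -0.19 with YA and -0.17 with OA, and all 17 were below control in YA. Of these 17, 0 were at least 1.2-fold higher and 4 lower in YA, and 1 was higher and 3 lower in OA. SEC11C, a signal peptidase subunit, was at 0.733-fold in YA (0.642 to 0.835), and SEC61A1, the channel subunit, at 0.817-fold in OA (0.789 to 0.846). SRPRA, the receptor of the signal recognition particle, was 1.31-fold of control in OA (1.27 to 1.36). Of 16 genes of ER to Golgi transport and retrieval, 0 passed 1.2-fold in YA, and in OA SEC24D was higher at 1.35-fold (1.23 to 1.47) and 0 were lower.

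Genes of the PERK and ATF4 arm had the highest median of the pathway lists. The list was chosen with earlier results of these data known, so its values are a description. In YA 10 of the 11 lay at least 1.2-fold above control and 0 below, beside 17.4% and 16.4% of all tested genes. The median log2 fold change was 1.33 beside -0.02 over all tested genes. In OA 6 were higher and 2 lower, beside 21.1% and 21.5%, with a median of 0.30 beside 0.01. ATF4 itself had 6784 (control), 9475 (YA) and 7003 (OA) counts, or 1.4-fold (1.36 to 1.45) and 1.23-fold (1.19 to 1.27) of control. DDIT3, the proapoptotic factor CHOP, had 91, 156 and 107 counts, 1.71-fold in YA (1.32 to 2.25) and 1.4-fold in OA (1.05 to 1.87), and exons of overlapping genes covered 39.6% of its exon bases.

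ASNS, which makes asparagine, had 1008, 3881 and 2086 counts and was 3.86-fold (3.6 to 4.14) and 2.46-fold (2.29 to 2.66) of control, with 44.6% of its exon bases shared with an overlapping gene. NUPR1, a stress-induced chromatin protein, had 8, 92 and 29 counts and was 10.3-fold of control in YA (5.62 to 27.5). ATF3, a stress-responsive transcription factor, went to either side of control, at 3.19-fold in YA (2.98 to 3.43) and 0.547-fold in OA (0.489 to 0.611). ATF5 was at 0.995-fold in YA (0.859 to 1.15). The 3 unfolded protein response genes that were higher in YA had log2 fold changes of 0.83, 0.57 and 0.49, each below the median of this arm. These 3 genes were singled out by their values and the arm was listed with earlier results known, so nothing is concluded from the comparison.

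The composite site that ATF4 and C/EBP factors are known to share (CARE) was searched as TGATG, 1 base and AA, a choice made after the values had been seen. It was in 3.62% of all windows and in 4.46% of all genes with a window. Matches lay in 4 of 10 genes of the ATF4 arm with a window (ASNS, ATF3, CHAC1 and PPP1R15B). ATF4 is known to act through this site, so its presence in the ATF4 arm is a description. Of the 10 unfolded protein response genes 1, HERPUD1, held the site. In HERPUD1 it lay on the opposite strand at -176 to -169 from the start site. Of 279 tested genes with the site, in YA 62 lay higher and 55 lower (22.2% and 19.7%), beside 15.1% and 14.3% of all genes with a window. In OA against control 68 lay higher and 70 lower (24.4% and 25.1%), beside 19.5% and 20.1%. Between YA and OA 83 were higher in YA and 54 lower (29.7% and 19.4%), beside 21.1% and 20%.

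EIF2AK3 is 1 of 4 eIF2alpha kinases. The others, EIF2AK1 (HRI, a heme and mitochondrial stress sensor), EIF2AK2 (PKR, activated by double-stranded RNA) and EIF2AK4 (GCN2, activated by uncharged tRNA), were counted 3969, 3812 and 4757 times in control. None of them passed 1.2-fold in YA, where they were at 0.997-fold (0.954 to 1.04), 0.956-fold (0.913 to 1.00) and 0.944-fold (0.906 to 0.984). In OA EIF2AK2 was 1.24-fold of control (1.18 to 1.29). Per kilobase EIF2AK4 was at 18.55 and EIF2AK3 at 2.56 in control, so the PERK mRNA was the scarcer of the pair.

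**Figure D4:**
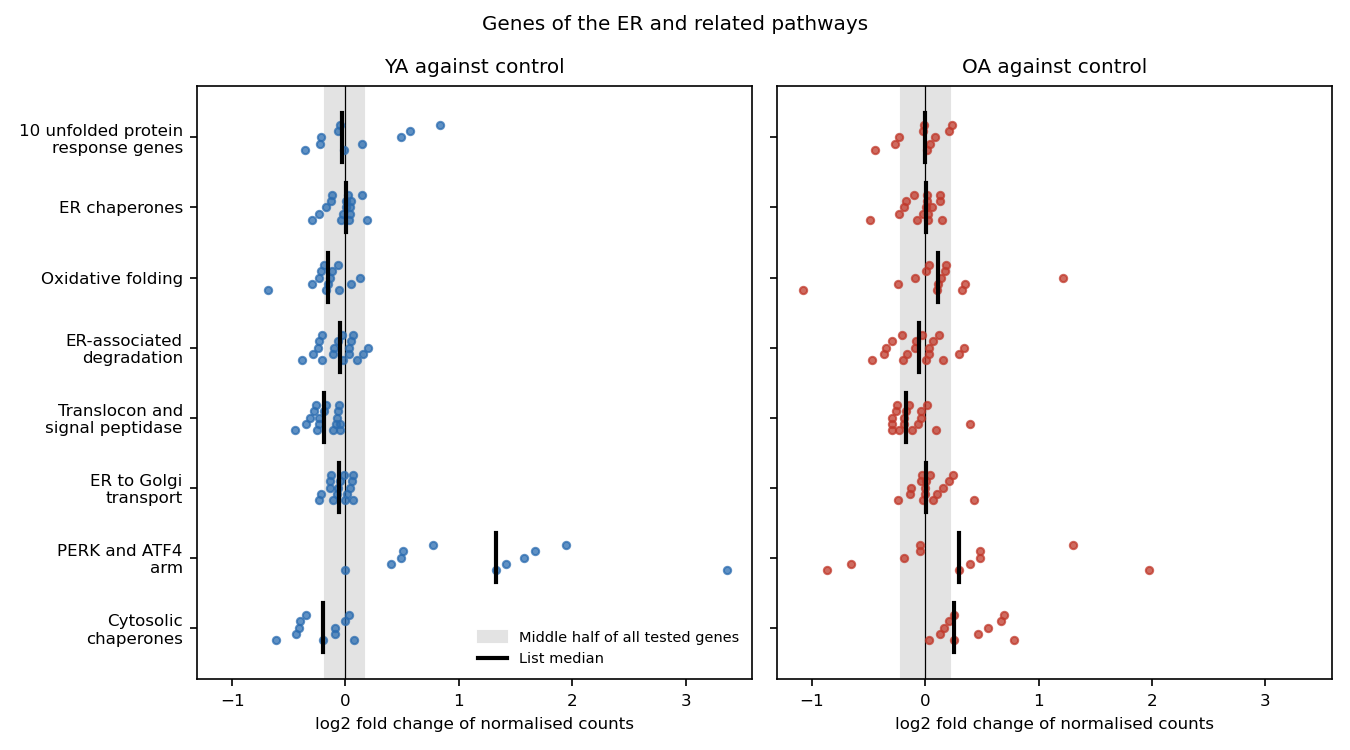
Log2 fold change of normalised counts (x axis, the same scale in both panels) for tested genes of 8 lists in YA (left, blue) and OA (right, red) against the shared control library. Each point is a gene, black bars are list medians, and the grey band holds the middle 50% of all tested genes. The list of cytosolic chaperones includes the mitochondrial HSPD1 and HSPE1. In YA the medians of ER chaperones and ER-associated degradation lie near 0 and that of the translocon and signal peptidase genes at -0.19, while 10 of 11 genes of the ATF4 arm lie to the right of the band.

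Paralogs of the 10 genes gave a comparison within families, in which PDIA3 is itself known to be induced by ER stress. Of 8 paralogs, ERN2 had at most 4 counts and was not tested. None of the other 7 was at least 1.2-fold higher or lower in YA against control, and CRELD1 alone was lower in OA. HERPUD2 was 1.15-fold of control in YA (1.06 to 1.25), where HERPUD1 was 1.48-fold, and ATF6B was at 1.07-fold (1.00 to 1.14), where ATF6 was at 1.11-fold. SDF2 was at 0.918-fold (0.816 to 1.03), close to SDF2L1 at 0.864-fold, and PDIA3, with 33.2% of its exon bases under genes of the opposite strand, at 0.957-fold (0.931 to 0.984) beside PDIA4 at 0.994-fold.

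In OA CRELD1 was at 0.768-fold (0.678 to 0.868) and CRELD2 at 0.733-fold, and PDIA3 at 1.13-fold (1.1 to 1.16) and PDIA4 at 1.18-fold, so members of these pairs lay near each other. ATF6B was at 0.841-fold in OA (0.781 to 0.905), where ATF6 was at 1.01-fold. CDNF, the paralog of MANF, had 24, 28 and 22 counts and a level of 0.646 per kilobase in control beside 58.4 for MANF, so the family was represented almost wholly by MANF.

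The cytosolic chaperones, which answer to heat shock factor and not to the ER sensors, had another pattern. Their list includes the mitochondrial HSPD1 and HSPE1. Of 11, 0 were at least 1.2-fold higher and 5 lower in YA against control, beside 17.4% and 16.4% of all tested genes. In OA 5 were higher and 0 lower, beside 21.1% and 21.5%, and the medians were -0.19 and 0.25. HSPE1, 1 of the 5 in each, had 87, 65 and 126 counts, and its interval in YA (0.535 to 1.045) held 1. Between YA and OA directly, 9 of the 11 were lower in YA and 0 higher, beside 21.5% and 23% of all tested genes. Their median was -0.56, while the 10 unfolded protein response genes had a median of 0.14 beside -0.01 over all tested genes. HSP90AA1 had 36995 (control), 32245 (YA) and 49233 (OA) counts, or 0.874-fold (0.861 to 0.887) and 1.58-fold (1.56 to 1.61). HSPA1A had 856, 558 and 831 counts and was at 0.654-fold in YA (0.587 to 0.728), and its near-identical copy HSPA1B makes that count uncertain.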

How the data were processed

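Poly(A) libraries (SureSelect, Agilent) of 1 sample per group were sequenced on a NovaSeq. The authors deposited raw counts per gene for 58037 genes in 3 columns. The submitters' processing notes name STAR 2.5.1b, featureCounts, R 3.6.1 and hg38, while the strand setting and annotation release are not given in the sources used here. The study's methods name DESeq2 and a cutoff of 1.2, read here as a linear fold.

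Counts were divided by DESeq2 1.42.0 median-of-ratios size factors in R 4.3.3. Fold changes are (a + 1)/(b + 1) of normalised counts, over 14413 genes with a mean of at least 20. Intervals are 95% Clopper-Pearson intervals of the ratio of 2 libraries and cover counting error only (PCR copies cannot be told from separate molecules). With 1 library per group no p-value was computed and edgeR's quasi-likelihood test could not be run. Alternatives were a pseudocount of 5, scaling by TMM (edgeR 4.0.16) or by total counts, other thresholds and filters, and the mean. The software was Python 3.11.15, matplotlib 3.10.9, scipy 1.17.1, pandas 2.3.3 and numpy 2.4.6. The procedure was run on simulated Poisson counts, a check of the calculation only. Such counts hold counting error alone and say nothing of variation between cultures or libraries.

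The members and lists were chosen with earlier results of these data known. The named genes are the 10 members, HSPA5, DNAJB9, ATF4, DDIT3, the paralogs and, in each list and secretome, the gene with the highest lower bound and that with the lowest upper bound of the interval against control. CREB3L1 and the marker genes given singly were chosen after their values had been seen. Gene positions and exon lengths were those of GENCODE 29 (GRCh38), joined on the unversioned identifier (57433 of 58037 genes), and promoters from RefSeq windows. SELENOS was found by its identifier under an older symbol. Protein sequences were not used here.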

Additional observations from a re-analysis of the deposited data

Results flagged for a closer look

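None of the 10 unfolded protein response genes lay on opposite sides of control in YA and OA with both counting intervals off 1. Among the other named genes 7 did, and whether the secretomes differ was not tested, as each had 1 library and both shared the control. ATF3 was 3.19-fold of control in YA and 0.547-fold in OA, a ratio of YA to OA of 5.83, and ATF6B was 1.07-fold and 0.841-fold, a ratio of 1.27. The others were above control in OA and below it in YA. The ratio of YA to OA was 0.848 for PDIA3, 0.727 for SRPRA, 0.591 for SPARC, 0.566 for HSPA1A and 0.552 for HSP90AA1.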

How the results depend on the processing

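The 6 counts of genes past 1.2-fold and the 3 medians stayed within 1.5 times their value, or within the counting error, with a pseudocount of 5 and with TMM or total-count scaling, and the counts also with no minimum mean and a minimum of 100. All 30 fold changes of the 10 genes stayed inside their counting intervals under both scalings and the pseudocount of 5. At 1.5-fold, which is stricter by construction, 1 gene was higher and 0 lower in YA against control (6.25% and 4.52% of tested genes) and 0 were lower in OA (8.81%). At 2-fold 0 genes were left in either direction in any comparison, beside 2.15% higher and 0.971% lower of all tested genes in YA, 2.86% and 3.71% in OA and 4.43% and 3.04% in YA against OA, shares that amount to less than 1 gene of 10. With the interval beyond 1.2-fold 1 gene was lower in OA. The mean of the 10 log2 fold changes in YA against control was 0.11 where the median was -0.03. ERN1, HERPUD1 and XBP1 stood at 0.83, 0.57 and 0.49, while 6 of the 10 genes lay below 0. No replicate could be left out, and the counts of ERN1, from 171 to 367, leave its fold in YA anywhere from 1.5 to 2.13 by counting error.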

Other observations

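Known substrates of IRE1, whose mRNAs it cuts apart from XBP1, did not share a direction. Of 6 such genes 1 was at least 1.2-fold higher and 0 lower in YA against control, and 2 were higher and 1 lower in OA. SPARC, a matrix protein, had 31052 (control), 29762 (YA) and 42386 (OA) counts, or 0.961-fold (0.946 to 0.977) and 1.63-fold (1.60 to 1.65) of control. COL6A1, a collagen chain, was 1.22-fold of control in YA (1.18 to 1.26), and PDGFRB, a receptor tyrosine kinase, was 0.773-fold in OA (0.671 to 0.888).

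Of 10 genes that process or assist the sensors and their transcription factors, 1 (CREB3L1) was past 1.2-fold upward in YA and 2 (TRAF2 and CREB3L1) in OA, and 0 were lower in either. CREB3L1, an ER-bound factor of the same family as CREB3, had 18, 25 and 30 counts, so its 1.37-fold in YA (0.730 to 2.71) had an interval that held 1, and in OA it was at 1.93-fold (1.07 to 3.78). TRAF2, an adaptor that binds active IRE1, had 570, 634 and 670 counts and was 1.12-fold of control in YA (0.995 to 1.25) and 1.4-fold in OA (1.25 to 1.57). CREB3L2, an ER-bound factor related to ATF6, was at 0.868-fold in YA (0.826 to 0.913) and 0.930-fold in OA (0.883 to 0.979). NFYC, a subunit of the factor that binds the CCAAT box, was at 1.08-fold in YA (1.00 to 1.16) and 1.11-fold in OA (1.03 to 1.2).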
